A study of Mus musculus with 16 samples.

Results

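The 10 genes described here belong to the NRF2 oxidative and xenobiotic response and were followed across the 4 groups of the study. They are Nfe2l2 and Keap1, which encode the transcription factor NRF2 and its inhibitor, and the 8 target genes Slc7a11, Gclc, Gclm, Txnrd1, Srxn1, Nqo1, Hmox1 and Osgin1. They were taken by name as known members of the pathway, with earlier results of these data known. All 10 passed the filter on low counts and were among the 16971 genes tested, of 49166 genes matched.

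NRF2 is held in the cytoplasm by KEAP1, an adaptor of a CUL3 ubiquitin ligase that marks it for degradation. Oxidants and electrophiles modify cysteines of KEAP1, so that newly made NRF2 escapes degradation, enters the nucleus and, with a small MAF protein, binds antioxidant response elements. Because this switch acts on the protein, the RNA of the target genes is the usual readout of the pathway, and the RNA of Nfe2l2 itself need not follow it. In the brain the pathway is known best from glia, and neural progenitors in culture also carry it.

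PolyA RNA was sequenced from 16 cultures of neural progenitor cells (NPCs), which were grown from E18.5 mouse cortex with FGF-2 and EGF. The cells received a lentivirus with Cas9 and 1 guide against Chd1, a chromatin remodeller gene (KO), or a lentivirus with Cas9 alone and no guide (WT). Both were put through 48 h of puromycin. All groups were harvested after 24 h of treatment, and each holds 4 biological replicates per the labels. WT DMSO and KO DMSO received vehicle. KO DHT received 10 nM dihydrotestosterone, an androgen. KO DHT+ENZ received 10 µM enzalutamide, an androgen receptor antagonist, 30 min before the same dose of DHT. The KO cultures are selected pools and not clones, and no WT culture received DHT and no culture received enzalutamide alone. The embryos came from 2 litters, and which replicate came from which litter is not given in the sources used here.

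Libraries held 31.8 to 36.9 M estimated counts, except WT DMSO replicate 1 with 20.2 M. Chd1 RNA was at 60.2 to 73.8 CPM (counts scaled to a common library size after TMM normalization) in WT DMSO and 65.2 to 71.0 in KO DMSO, a log2 fold change of 0.01 (SE 0.08). The RNA level of a gene edited by Cas9 does not check the edit. Progenitor markers summed to 5950 to 8577 CPM, with Nes at a median of 2513, Sox2 at 211 and Pax6 at 27.9. Hes5, of the same list, was low at 0.544. Olig1 and Olig2 were also high, at medians of 1136 and 837 CPM, while Sox10 was at 0 in 13 libraries. Microglia markers summed to 2.99 to 5.13 CPM with C1qa at 0 in all 16 libraries. Neuron markers summed to 874.1 to 1404 CPM, with Map2 at a median of 1068 and Dcx and Rbfox3 at 1.63 and 1.40. Astrocyte markers summed to 210.1 to 421.3 CPM. Of these, Gfap and Aqp4 were low (medians of 1.28 and 0.0787 CPM), and Aldh1l1, Gja1 and Slc1a2 had medians of 151, 107 and 59.4. Replicates 1 and 4 were separated from replicates 2 and 3 in all groups by the first principal component (36% of the variance).

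The letters that NRF2 is known to read were looked for first, since they are what the 8 target genes are thought to share. The motif TGACNNNGC, the core of the antioxidant response element, was searched on both strands of RefSeq promoters of build GRCm38.p6, each running from 250 bases before a gene's start to 50 after it. The table held 10 promoters of 8 of the genes and none for Hmox1 and Gclc. Of these, 4 promoters of 4 genes held the motif, which is 40% of the 10, against 12.4% of all 32851 promoters in the table. Of the 4 genes, Nfe2l2 is a regulator and not one of the 8 target genes, and Txnrd1 gave 3 of the 10 promoters. Each match is printed with 10 bases on either side and the motif in capitals, 5′ to 3′ on the strand of the gene. Where the capitals start with GC, the motif reads on the opposite strand.
Gclm: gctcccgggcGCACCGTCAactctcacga
Srxn1: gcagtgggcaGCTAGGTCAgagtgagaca
Txnrd1: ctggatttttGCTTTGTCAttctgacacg
Nfe2l2: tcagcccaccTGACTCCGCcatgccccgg
The Gclm window lies at chr3:122245413-122245441 on the plus strand, and its motif begins 134 bases before the start. The Srxn1 window lies at chr2:152105542-152105570 on the plus strand, with the motif beginning at base 29, counting the start as base 1. The Txnrd1 window lies at chr10:82859104-82859132 on the plus strand, at 1 of the 3 starts listed for that gene and 92 bases before it. The Nfe2l2 window lies at chr2:75704885-75704913 on the minus strand, with the motif beginning 240 bases before the start. A match is a description of letters and does not show a binding site. The promoters of Nqo1, Slc7a11, Osgin1 and Keap1 did not hold these letters in this window, which leaves out elements farther away.

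The 10 genes covered a wide range of levels. On the deposited TPM scale, which accounts for transcript length, Txnrd1 was the highest with a mean of 187 ± 17.6 TPM over the 16 libraries (SD). Hmox1 followed at 125 ± 17.5 and Nfe2l2 at 91.7 ± 7.52. Gclm at 61.7 ± 5.95 and Gclc at 58.1 ± 4.86, the modifier and catalytic subunits of glutamate-cysteine ligase, did not differ beyond their spread. Srxn1 stood at 37.04 ± 6.28, Keap1 at 26.4 ± 1.66, Nqo1 at 22.4 ± 2.10 and Slc7a11 at 13.3 ± 3.89 TPM. Osgin1 was the lowest at 2.85 ± 1.05 TPM, and its 51 to 176 estimated counts per library make it the least precise of the 10. Nqo1, a common marker of NRF2 activity, thus stood a little below Keap1 in these progenitors. By CPM within a gene, the highest library exceeded the lowest by 3.11 times for Osgin1, 2.62 for Slc7a11 and 2.10 for Srxn1, but only by 1.31 times for Gclc, 1.39 for Keap1 and 1.44 for Nfe2l2.

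**Figure D1:**
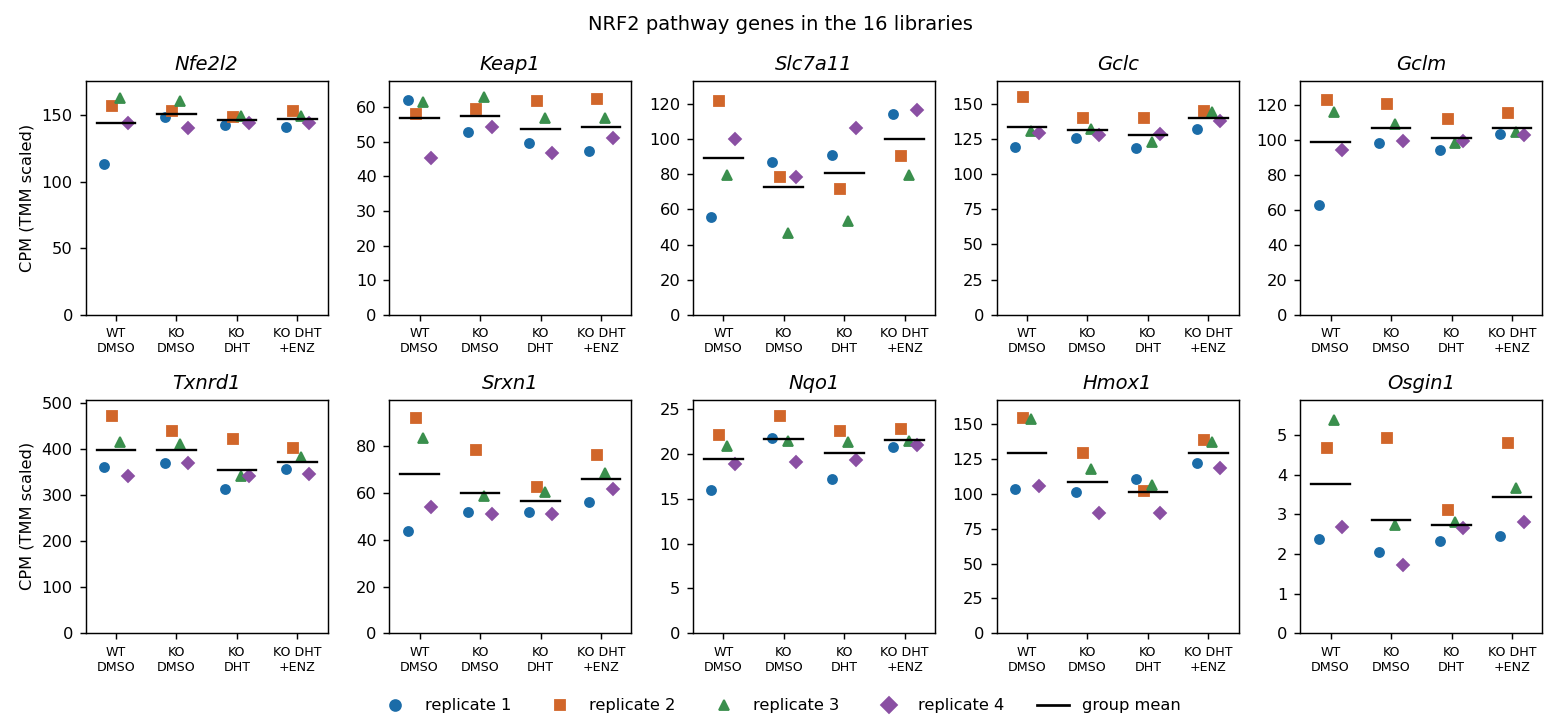
CPM (counts scaled to a common library size by TMM, axes from 0) of the 10 genes in each of the 16 libraries, by group on the horizontal axis, with 1 marker shape per replicate number and a line at each group mean. Replicates 2 (squares) are near the top in most panels, and the groups compared overlap except for Hmox1 between KO DHT (86.3 to 111) and KO DHT+ENZ (119 to 138).

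The regulators came first. Nfe2l2 was at 113, 157, 163 and 144 CPM in replicates 1 to 4 of WT DMSO, and at 148, 153, 161 and 141 in KO DMSO. It was at 143, 149, 149 and 144 CPM in KO DHT, and at 141, 153, 150 and 144 in KO DHT+ENZ. The only library that stood apart was WT DMSO replicate 1, and the other 15 lay within 141 to 163 CPM. Its log2 fold changes were 0.07 (SE 0.07) for KO DMSO over WT DMSO, -0.04 (SE 0.07) for DHT over DMSO in KO cells, and 0.01 (SE 0.07) for KO DHT+ENZ over KO DHT. Keap1 was at 62.1, 58.1, 61.6 and 45.3 CPM in WT DMSO and at 52.9, 59.5, 62.9 and 54.3 in KO DMSO. It was at 49.6, 61.7, 56.8 and 46.7 in KO DHT, and at 47.2, 62.4, 57.0 and 51.0 in KO DHT+ENZ. All 4 groups overlapped, and in every group the lowest library was replicate 1 or 4. Keap1's log2 fold changes ranged from -0.10 (SE 0.08, DHT over DMSO) to 0.02 (SE 0.08, both KO over WT and enzalutamide over DHT alone). Neither regulator passed the test in any comparison.

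The first comparison sets vehicle-treated cultures that received the Chd1 guide against those that received none. None of the 10 genes passed an adjusted p under 0.05 in KO DMSO against WT DMSO (edgeR), where 0% of all genes tested passed either. The count with an unadjusted p under 0.05 was 2 of the 10 and 1329 of all genes. DESeq2 also passed 0 of the 10, with or without the replicate block, where it passed 14 and 0 of all 16971 genes. Over the 10 genes, the median log2 fold change was -0.007, against -0.001 over all genes, with 5 higher and 5 lower.

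The 2 genes with an unadjusted p under 0.05 were Hmox1 and Osgin1. Hmox1, the haem oxygenase that opens the haem ring and releases iron, was at 103, 155, 154 and 106 CPM in WT DMSO and at 101, 129, 118 and 86.4 in KO DMSO. It was lower in KO in 4 of 4 same-numbered pairs, as 6.57% of all genes were, but the groups overlapped. The log2 fold change was -0.25 (SE 0.09; adjusted p = 0.582, edgeR). Osgin1, an oxidative stress-induced inhibitor of growth, was at 2.37, 4.68, 5.38 and 2.68 CPM in WT DMSO and at 2.06, 4.94, 2.73 and 1.73 in KO DMSO. The groups overlapped, replicate 2 was slightly higher in KO, and the log2 fold change was -0.43 (SE 0.19; adjusted p = 0.631, edgeR).

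Slc7a11, the cystine importer that supplies cysteine for glutathione, had the widest spread between pairs. It was at 55.5, 122, 79.5 and 100 CPM in WT DMSO and at 86.9, 78.5, 46.6 and 78.3 in KO DMSO. Pair 1 was higher in KO by 0.64 on the log2 scale, while pairs 2, 3 and 4 were lower, with differences of -0.63, -0.76 and -0.35. The fitted change was -0.33 (SE 0.19; adjusted p = 0.706, edgeR), and with 1 library left out it ranged from -0.134 (without WT DMSO replicate 2) to -0.57 (without WT DMSO replicate 1), with adjusted p from 0.067 to 0.998. With replicates 2 and 3 alone, a choice made after seeing the data, it was -0.69 (adjusted p = 0.0142, edgeR), and with replicates 1 and 4 alone it had the opposite sign, at 0.13 (adjusted p = 0.917, edgeR).

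Pair 1 also held the largest positive difference for Gclm, Nqo1 and Nfe2l2. Gclm was at 62.9 CPM in WT DMSO replicate 1 and at 123, 116 and 94.2 in replicates 2, 3 and 4, against 97.9, 120, 109 and 99.2 in KO DMSO. On the TPM scale the same WT library was at 58.5, within the 55.0 to 75.2 of the other 3. In that library Gclm-201, the 5589-base transcript, made up 16.8% of the gene's TPM, against 30.3% to 40.5% in the other 15 libraries. WT DMSO replicate 1 was likewise low or high for other long and short forms. Slc7a11-201 (9223 bases) made up 76.7% of its gene there against 94.2% to 99.2% elsewhere. Srxn1-202 (375 bases) made up 21.0% against at most 15.2%, though on only 9.11 estimated counts in WT DMSO replicate 1. By CPM this library was the lowest of its group for 8 of the 10 genes, all but Txnrd1 and Keap1, as it was for 30.2% of all genes tested. Its lower depth and different transcript shares move with the pair 1 differences, and their part in them was not tested.

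For the other 4 target genes the vehicle groups overlapped. Gclc was at 119, 155, 130 and 129 CPM in WT DMSO and at 125, 140, 132 and 128 in KO DMSO, a log2 fold change of -0.02 (SE 0.05). Txnrd1 was at 360, 471, 416 and 341 CPM in WT DMSO and at 369, 438, 410 and 370 in KO DMSO, a log2 fold change of 0.01 (SE 0.06). Srxn1 was at 43.7, 91.8, 83.4 and 54.1 CPM in WT DMSO and at 51.7, 78.2, 58.8 and 51.1 in KO DMSO. Its WT cultures spanned the KO range on both sides, and the log2 fold change was -0.16 (SE 0.11; adjusted p = 0.752, edgeR). Nqo1 was at 15.98, 22.1, 20.9 and 18.9 CPM in WT DMSO and at 21.7, 24.2, 21.4 and 19.1 in KO DMSO, with overlapping groups and a log2 fold change of 0.15 (SE 0.08; adjusted p = 0.651, edgeR).

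The second comparison asks what DHT does in KO cells, and it shares the KO DMSO libraries with the first. None of the 10 genes passed in KO DHT against KO DMSO (edgeR, 0% of all genes). At an unadjusted p under 0.05 there was 1 of the 10 and 1358 of all genes. DESeq2 passed 0 of the 10 with or without the block, where it passed 1 and 0 of all 16971 genes. The median log2 fold change was -0.07, against -0.002 over all genes, with 8 genes lower and 2 higher. With the deposited TPM as the scale, a choice made after seeing the data, 6 were lower and 4 higher. Their median log2 ratio of TPM was -0.029, against 0.056 over all genes.

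The gene with the smallest p was Txnrd1, the cytosolic thioredoxin reductase and a selenoprotein. It was at 369, 438, 410 and 370 CPM in KO DMSO and at 314, 421, 341 and 342 in KO DHT. It was lower with DHT in 4 of 4 pairs, as 13.2% of all genes were, though replicate 2 with DHT lay above 3 of the 4 vehicle cultures. The log2 fold change was -0.17 (SE 0.06; adjusted p = 0.606, edgeR). Hmox1 was at 111, 102, 106 and 86.3 CPM in KO DHT, and its change of -0.09 (SE 0.09) joined a higher pair 1 to 3 lower pairs. Slc7a11 was at 91.1, 71.6, 53.2 and 106 CPM in KO DHT, a log2 fold change of 0.14 (SE 0.19), within the range of the KO DMSO cultures apart from replicates 1 and 4, which lay above it.

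The third comparison asks what adding enzalutamide to DHT does. It shares the KO DHT libraries with the second, on the other side. A low or high value there moves the changes of these comparisons in opposite directions, so they are not independent. All 10 genes had a fitted level above that of KO DHT, with log2 fold changes from 0.01 for Nfe2l2 to 0.35 for Hmox1 and a median of 0.12 against -0.005 over all genes. None passed the test (edgeR, adjusted p under 0.05), where 3.48% of all genes passed, 1.57% higher and 1.92% lower, or 0.265% without the replicate block. At an unadjusted p under 0.05 there were 2 of the 10 and 2662 of all genes. DESeq2 passed 1 of the 10 with the block and 0 without it, where it passed 1041 and 215 of all 16971 genes. Of the 10, 7 were higher in 4 of 4 pairs, as 14.0% of all genes were. The count of genes above 0 depends on the scale. With the deposited TPM, 5 were higher and 5 lower (Nqo1, Gclm, Txnrd1, Nfe2l2 and Keap1). The median log2 ratio of TPM was 0.005 for the 10 genes, against -0.10 over all genes. The count was 9 of 10 higher with an effective length offset (Keap1 lower) and with a length trend removed (Nfe2l2 lower).

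**Figure D2:**
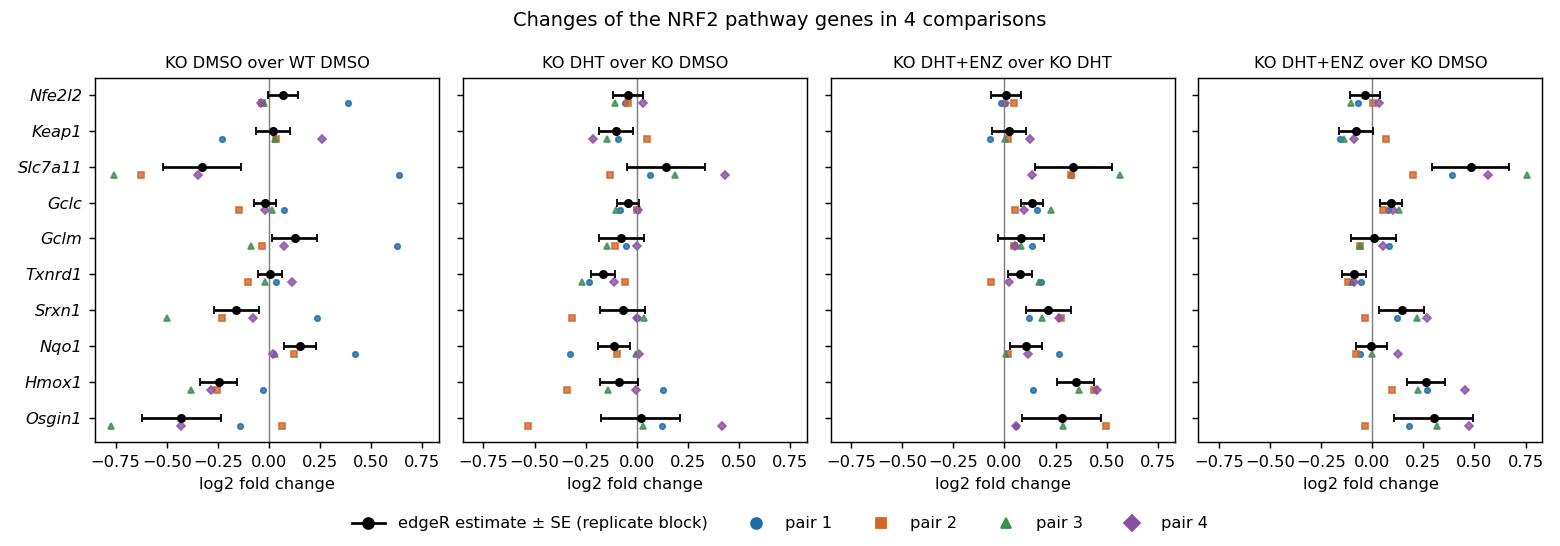
Log2 fold changes of the 10 genes in the 4 comparisons: the black point and bar are the edgeR estimate ± SE from the model with the replicate block, and the coloured markers are the 4 same-numbered pairs (log2 of CPM + 1). In the third panel all estimates lie to the right of 0, with Hmox1 at 0.35 and Slc7a11 at 0.34, and in the first panel pair 1 lies apart for Slc7a11 and Gclm.

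Hmox1 came closest to the threshold. It was at 111, 102, 106 and 86.3 CPM in KO DHT and at 122, 138, 137 and 119 in KO DHT+ENZ. The 2 groups did not overlap, which 3.08% of all genes share in this direction, and each pair was higher with enzalutamide, by 0.14, 0.44, 0.36 and 0.45 on the log2 scale. The log2 fold change was 0.35 (SE 0.09; adjusted p = 0.0529, edgeR). Its level with enzalutamide, 129 ± 10.2 CPM (SD, n = 4), was about that of WT DMSO at 129 ± 28.7. The adjusted p was 0.00905 in DESeq2 with the block. With 1 library left out it ranged from 0.0049 to 0.22 (edgeR), and it passed in 2 of the 16 fits, without WT DMSO replicate 1 (0.0049) and without KO DHT replicate 1 (0.0163). It was highest without KO DHT replicate 2 (0.22), KO DHT+ENZ replicate 4 (0.219) or KO DHT replicate 3 (0.201). The adjusted p was 0.621 in edgeR without the replicate block, 0.138 with an effective length offset and 0.1002 with a length trend removed. With only these 2 groups in the model it was 0.00445, and with no filter on low counts 0.0164 (edgeR).

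The genes of glutathione synthesis were next. Slc7a11 was at 91.1, 71.6, 53.2 and 106 CPM in KO DHT and at 114, 90.2, 79.3 and 116 in KO DHT+ENZ. Each pair was higher with enzalutamide, by 0.33, 0.33, 0.57 and 0.13, although the groups overlapped. The log2 fold change was 0.34 (SE 0.19; adjusted p = 0.428, edgeR), and with only these 2 groups in the model the adjusted p was 0.0110. It ranged from 0.0539 to 0.73 with 1 library left out. Gclc, which makes gamma-glutamylcysteine, was at 119, 140, 123 and 128 CPM in KO DHT and at 132, 145, 144 and 137 in KO DHT+ENZ. It was higher in 4 of 4 pairs, with a log2 fold change of 0.14 (SE 0.05; adjusted p = 0.232, edgeR). Gclm, its modifier subunit, was at 94.3, 112, 98.2 and 99.4 CPM in KO DHT and at 104, 115, 104 and 103 in KO DHT+ENZ, a log2 fold change of 0.08 (SE 0.11; adjusted p = 0.805, edgeR).

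Srxn1 and Txnrd1 act on the thioredoxin and peroxiredoxin side. Srxn1, sulfiredoxin, which reduces over-oxidised peroxiredoxins, was at 51.7, 62.7, 60.3 and 51.1 CPM in KO DHT and at 56.2, 76.2, 68.7 and 61.8 in KO DHT+ENZ. It was higher in 4 of 4 pairs, with overlapping groups and a log2 fold change of 0.21 (SE 0.11; adjusted p = 0.377, edgeR). Txnrd1 was at 314, 421, 341 and 342 CPM in KO DHT and at 356, 403, 383 and 347 in KO DHT+ENZ, higher in 3 of 4 pairs, with a log2 fold change of 0.08 (SE 0.06).

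Nqo1, the quinone reductase, was at 17.2, 22.5, 21.3 and 19.3 CPM in KO DHT and at 20.8, 22.8, 21.4 and 21.0 in KO DHT+ENZ. The largest difference was in replicate 1, and the log2 fold change was 0.11 (SE 0.08; adjusted p = 0.577, edgeR). Osgin1 was at 2.33, 3.10, 2.81 and 2.65 CPM in KO DHT and at 2.46, 4.80, 3.65 and 2.79 in KO DHT+ENZ, a log2 fold change of 0.28 (SE 0.19; adjusted p = 0.550, edgeR).

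The fourth comparison sets KO DHT+ENZ against KO DMSO and shares its libraries with the comparisons above, so its values are not independent of them. None of the 10 passed (edgeR), where 2.94% of all genes passed, 0.854% higher and 2.09% lower, or 0.253% without the replicate block. At an unadjusted p under 0.05 there were 2 of the 10 and 2296 of all genes. DESeq2 passed 0 of the 10 with or without the block, where it passed 819 and 187 of all 16971 genes. The median log2 fold change was 0.05, against 0.006 over all genes, with 6 higher and 4 lower. Of the 10, 4 had 1 direction in 4 of 4 pairs (3 higher and 1 lower), as 31.6% of all genes had. With the deposited TPM, 5 were higher and 5 lower, with a median log2 ratio of -0.006 against -0.036 over all genes.

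Slc7a11 had the largest log2 fold change of the 10 in this comparison. It was at 86.9, 78.5, 46.6 and 78.3 CPM in KO DMSO against the 114, 90.2, 79.3 and 116 given above, higher by 0.39, 0.20, 0.76 and 0.57 in the 4 pairs, and only replicate 3 with enzalutamide lay within the range of the vehicle cultures. The log2 fold change was 0.48 (SE 0.19; adjusted p = 0.251, edgeR), and with 1 library left out the adjusted p ranged from 0.0087 (without WT DMSO replicate 1) to 0.581 (without KO DMSO replicate 3), passing in 1 of 16 fits. It was 0.983 without the replicate block (edgeR). Hmox1 was at 101, 129, 118 and 86.4 CPM in KO DMSO, and its change with DHT and enzalutamide was 0.26 (SE 0.09; adjusted p = 0.186, edgeR), higher in 4 of 4 pairs. With 1 library left out its adjusted p ranged from 0.0344 (without WT DMSO replicate 1) to 0.498 (without KO DHT+ENZ replicate 4), passing in 1 of 16 fits. Txnrd1 was lower in 4 of 4 pairs, with a log2 fold change of -0.09 (SE 0.06), and Gclc was higher in 4 of 4 pairs, at 0.09 (SE 0.05). For Nqo1, Gclm and Nfe2l2 the log2 fold changes were -0.00, 0.01 and -0.03, all smaller than their SE. In bulk RNA, fewer cells of a type and less RNA per cell cannot be told apart, and this holds for every difference given here.

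The levels of these genes also went with the replicate number. The first principal component over all genes tested (36% of the variance) separated the same replicates. The counts below were not made over all genes, so they do not set these 10 genes apart. For 9 of the 10 genes the lowest library of each of the 4 groups was replicate 1 or replicate 4, and Slc7a11 was the exception, with this in 1 group. The highest library was replicate 2 in 4 of 4 groups for Nqo1, Gclc, Gclm, Srxn1 and Txnrd1, and in 3 of 4 for Hmox1 and Osgin1. Srxn1 averaged 77.2 CPM over the 4 libraries of replicate 2 and 50.8 over those of replicate 1, and Osgin1 averaged 4.38 and 2.30. Slc7a11 differed in replicates 3 and 4: it averaged 87.0, 90.5, 64.7 and 100 CPM in replicates 1 to 4. What the replicate number stands for, a litter, an embryo or a day, is not given in the sources used here.

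**Figure D3:**
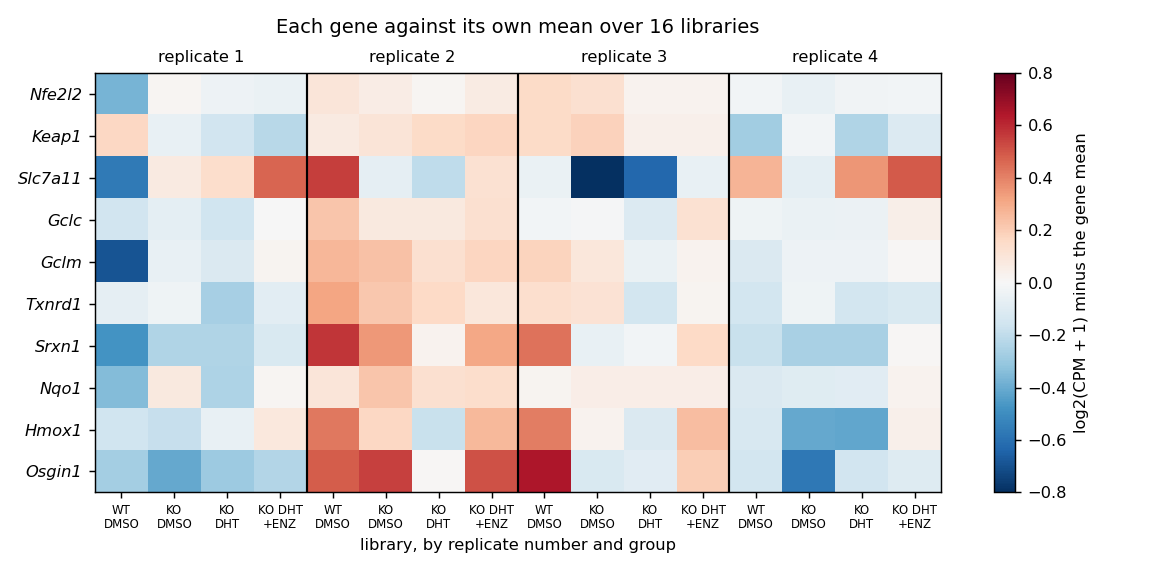
Heat map of log2(CPM + 1) of each of the 10 genes minus that gene's mean over the 16 libraries, with libraries ordered by replicate number and then by group, and red above and blue below the mean. The columns of replicates 2 and 3 are mostly red and those of replicates 1 and 4 mostly blue, except in the Slc7a11 row, where replicate 3 holds the lowest values.

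With the mean of each replicate number removed, the gene most like each of the 10 over the 16 libraries was found among 9470 others of at least 10 CPM. For Hmox1 it was Atf4, which encodes a transcription factor of the amino acid and stress response (Pearson r = 0.96), and for Slc7a11 it was Klf6 (r = 0.96). The others were Tspan6 for Nfe2l2 (0.97), Zbtb17 for Keap1 (0.93), Wnt5a for Gclc (0.92), Cd24a for Gclm (0.97), Ormdl2 for Txnrd1 (0.87), Myl12a for Srxn1 (0.95), Ubap1 for Nqo1 (0.92) and Cars for Osgin1 (0.90). None of these nearest genes was another of the 10 by construction of the search, and the points share replicate numbers, depth and WT DMSO replicate 1. Each value is the highest of many and is given as a description only.

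Other genes were taken in 8 lists that hold 147 genes, of which 130 were tested. The lists of AhR, PXR and CAR genes and of the ATF4 amino acid response belong to other pathways. Counts over the 130 are therefore not counts of NRF2 pathway genes alone. Slc3a2, Chac1 and Sesn2 stand in 2 lists each. In KO DMSO against WT DMSO and in KO DHT against KO DMSO none of the 130 passed in edgeR. An unadjusted p under 0.05 was held by 24 (18.46%) and 17 (13.08%), beside 7.83% and 8.00% of all genes tested. DESeq2 with the block called 2 of the 130 in the first, Glrx (0.37) and Slc7a1 (-0.32), and 0 in the second. Over all 16971 genes it called 14 and 1. Without the block it called 0 of the 130 in both, as it did over all genes. ATF4 is a transcription factor of the amino acid response that also targets Slc7a11. The list of its response genes had a median of -0.26 in KO over WT, with 20 of 20 genes below 0, 13 of them in all 4 pairs, and 15 at an unadjusted p under 0.05. Over all genes the median was -0.001, 6.57% were lower in all 4 pairs and 1329 of 16971 had an unadjusted p under 0.05. Astrocyte markers in this comparison had a median of 0.33, with 4 of 5 higher, each of those 4 at an unadjusted p under 0.05 and none passing the adjusted test. Their summed levels were 210.1 to 357.2 CPM in WT DMSO and 261.2 to 421.3 in KO DMSO. Their part in the list's values was not tested, and WT DMSO replicate 1 and its transcript shares enter this comparison too. The 2 smallest p-values of the ATF4 list belonged to Slc7a1, a cationic amino acid transporter, at -0.33, and Trib3, a pseudokinase, at -1.07.

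In the other lists of that comparison the 2 smallest p-values belonged to Maff (-0.30) and Mafg (-0.10) among NRF2 regulators and partners, Glrx (0.37) and Chac1 (-0.91) among glutathione enzymes, and Selenop (0.35) and Sesn2 (-0.19) among thioredoxin and antioxidant genes. They belonged to Me1 (0.18) and Idh1 (0.11) in NADPH supply, Hmox2 (0.12) and Slc40a1 (-0.35) in haem and iron, Ptgr2 (0.22) and Aldh1a1 (0.53) among xenobiotic enzymes, and Tiparp (0.35) and Cyp1b1 (-0.26) among AhR, PXR and CAR genes. With DHT over DMSO they were Gsk3b (0.26) and Sqstm1 (-0.13), Gpx4 (-0.19) and Gsr (-0.15), Txn2 (-0.18) and Sesn3 (0.21), G6pdx (-0.21) and Taldo1 (-0.16), Slc48a1 (-0.24) and Blvrb (-0.25), Ephx1 (-0.14) and Akr1b3 (-0.15), Ahr (0.29) and Cyp1b1 (0.26), and Shmt2 (-0.12) and Stc2 (0.12), in the same order of lists with ATF4 last. None of these passed in edgeR.

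With enzalutamide over DHT alone, 21 of the 130 genes passed, 19 higher and 2 lower, which is 16.2% beside the 3.48% of all genes tested. They include partners of NRF2, namely the small MAF genes Maff (0.43) and Mafg (0.22), and Sqstm1 (0.26), whose protein p62 binds KEAP1. Nfe2l3, a relative of NRF2, fell by 1.32 on the log2 scale at about 1 CPM or less. Maff and Mafg also hold the motif in a promoter, printed with the same marking and build.
Maff: gggcgtctcaTGACTCTGCcactggaaag
Mafg: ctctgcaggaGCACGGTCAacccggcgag
The Maff window lies at chr15:79346499-79346527 on the plus strand, at 1 of the starts listed for that gene and 112 bases before it. The Mafg window lies at chr11:120633751-120633779 on the minus strand, 222 bases before the start. The promoters of Sqstm1 and Nfe2l3 did not hold these letters in this window. Of all promoters of the 8 lists, 27 of 170 held the motif (15.9%), against 12.4% of all promoters in the table. A link between the motif and the genes called was not tested.

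Among 31 glutathione genes 5 rose and none fell: Gsto1 (0.38), Gpx4 (0.34), Mgst1 (0.33), Gpx1 (0.32) and, named after its value was seen, Gss (0.31), the enzyme that follows Gclc and Gclm in glutathione synthesis. Of 20 thioredoxin and antioxidant genes Txn1 (0.44) and Txn2 (0.25) rose. Txnip, whose protein binds and inhibits thioredoxin, was at 1.40, 4.47, 2.42 and 1.27 CPM in KO DHT and at 0.381, 0.895, 0.493 and 0.590 in KO DHT+ENZ. The groups did not overlap, and it fell by 1.92 on the log2 scale (SE 0.28; adjusted p = 0.00207, edgeR). Txn1, the substrate of Txnrd1, was at 805, 681, 677 and 574 CPM in KO DHT and at 861, 1053, 983 and 795 in KO DHT+ENZ.

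All 8 NADPH genes had a fitted level above that of KO DHT, and G6pdx (0.23), which starts the pentose phosphate pathway, was the 1 that passed. The ferritin genes Ftl1 (0.35) and Fth1 (0.31), which store the iron that haem oxygenase releases, and the haem transporter gene Slc48a1 (0.27) were the 3 of 11 haem and iron genes that passed. Aldh3a2 (0.21) was the 1 of 23 xenobiotic genes that passed. Of 14 AhR, PXR and CAR genes only 6 could be tested and none passed, with Ahrr at -0.58 and Ahr at -0.44. Of 20 ATF4 response genes 4 rose, namely Cth (0.78), which makes cysteine by transsulfuration, Ddit3 (0.65), Atf5 (0.51) and Aldh1l2 (0.40). The medians were 0.05, 0.10, 0.07, 0.10, 0.17, 0.07, -0.03 and 0.25 for the lists in the order given here, and 0.12 for the 10 genes.

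In edgeR these calls rest on the pairing and on single libraries. Of the 21, none passed without the replicate block, 10 with an effective length offset and 11 with a length trend removed. The called genes had a median transcript length of 1752 bases against 2403 over all genes of the table. With 1 library left out, between 2 (without KO DHT replicate 2 or KO DHT+ENZ replicate 4) and 21 of them passed. DESeq2 passed 20 of the 21 with the block, and 3 without it (Txn1, Txnip and Atf5).

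**Figure D4:**
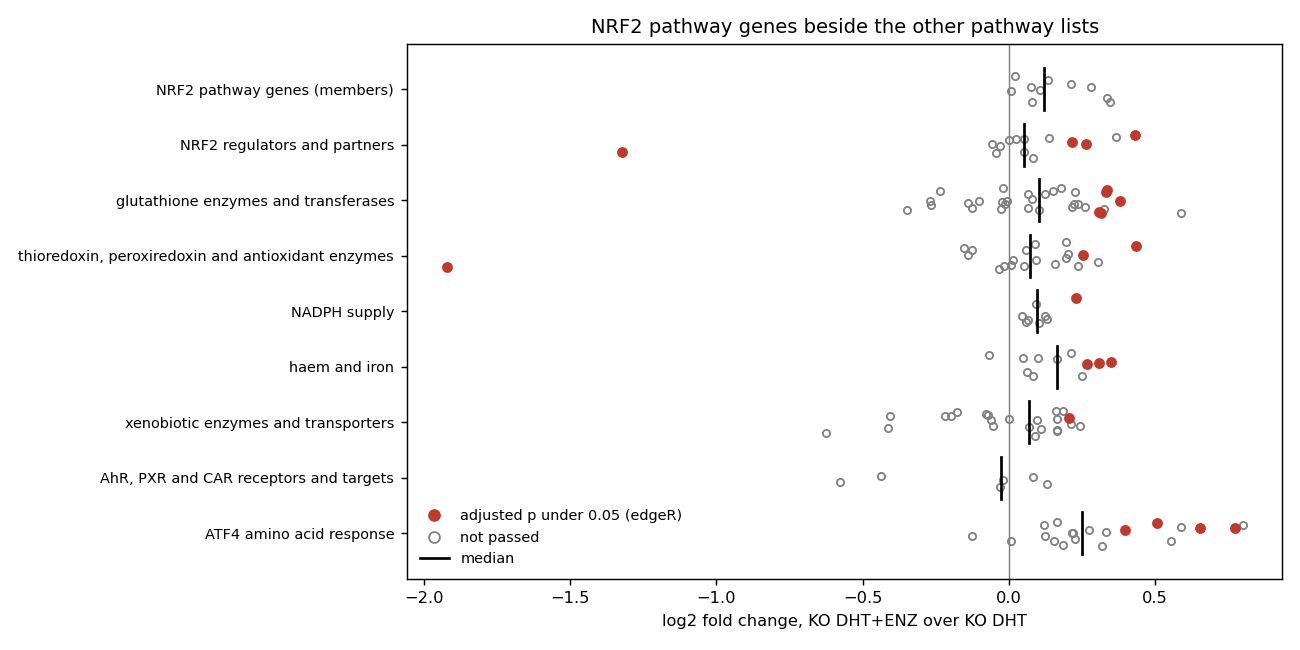
Log2 fold change of KO DHT+ENZ over KO DHT (horizontal axis) for the 10 NRF2 genes and the 8 other lists, 1 point per gene, filled where the adjusted p is under 0.05 (edgeR with the replicate block), with a bar at each median. The 10 genes have a median of 0.12 and no filled point, and most filled points of the other lists lie right of 0, with Txnip (-1.92) and Nfe2l3 (-1.32) far to the left.

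Against KO DMSO, the KO DHT+ENZ cultures had 9 of the 130 genes called, 7 higher and 2 lower (6.92%). Of all genes tested 2.94% were called, 0.854% higher and 2.09% lower. Maff (0.35), Mafg (0.25), Txn1 (0.42), Ddit3 (0.67), Atf5 (0.49), Aldh1l2 (0.45) and Slc7a1 (0.27) rose. Txnip fell by 1.59 on the log2 scale, and so did Ptgr1, a xenobiotic reductase gene, by 0.29. No gene of the glutathione, NADPH, haem and iron or AhR lists passed, where the smallest p-values belonged to Gsto1 (0.23) and Chac1 (0.68), Taldo1 (-0.07) and H6pd (0.12), Ftl1 (0.23) and Alas1 (0.12), and Arnt (0.12) and Ahrr (-0.42). DESeq2 with the block called 17 of the 130, and 819 of all 16971 genes. None of the 9 passed in edgeR without the replicate block, and between 1 (without KO DMSO replicate 3 or 4) and 9 passed with 1 library left out. DESeq2 passed all 9 with the block, and 2 of them without it (Txn1 and Atf5).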

How the data were processed

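The authors used kallisto and GRCm39, per the submitters' processing notes, and the versions are not given in the sources used here. Per the file headers, the deposited files hold an estimated count (expected count) and a TPM for each of 146190 transcripts, both made by the authors. Of these, 135007 were matched by identifier to 49166 GENCODE M21 genes, used for names only, and held 98.85% to 99.12% of each library's counts. Estimated counts were summed per gene and rounded. TPM was summed per gene to order levels.

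edgeR 4.0.16 (R 4.3.3) fitted 1 quasi-likelihood model of the 4 groups and the replicate number to all 16 libraries, with TMM scaling and filterByExpr, and p-values were adjusted by Benjamini-Hochberg over 16971 genes. A gene was called at an adjusted p under 0.05. SE is the absolute log2 fold change over the square root of F. Pair differences use log2(CPM + 1).

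The replicate number is the main block because same-numbered libraries share a prefix in the names of the deposited files. After removal of group means they correlated at r = 0.16 to 0.79 over 9747 genes of at least 10 CPM, all above 0.1, although only 10 of 16 libraries were closest to one of their own number. The common biological coefficient of variation was 0.122 with the block and 0.212 without.

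Alternatives were no block, DESeq2 1.42.0, other size factors, no filter, length offsets or trends, 2 groups only and each library left out. The scripts were tested on simulated data. The genes and lists were chosen with earlier results of these data known. Named are the 10 genes, up to 4 called genes per list and direction, or the 2 smallest p-values where a list had none, and the nearest gene to each of the 10. Python 3.11.15, pandas 2.3.3 and matplotlib 3.10.9 made tables and figures.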

Additional observations from a re-analysis of the deposited data

Results flagged for a closer look

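Gclm in KO DHT+ENZ replicate 2, at 115.4 CPM, stood apart from the other 3 libraries of its group at 102.9 to 104.1, with a gap of 0.902 of the group's range, above Dixon's critical value for 4 samples. It was the 1 of 40 groups checked (10 genes in 4 groups), and chance alone flags about 1 in 20. Replicate 2 was also the highest Gclm library of the other 3 groups.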

How the results depend on the processing

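None of the 10 genes passed in the model as reported, so no call could be lost. Of their 1040 alternative values, 13 passed and 50 had the opposite sign to the value reported. Without the replicate block the counts of the 10 genes stayed at 0, and all genes called were 45 for KO DHT+ENZ over KO DHT (591 with it), 43 for KO DHT+ENZ over KO DMSO (499) and 0 for the others. For KO DMSO over WT DMSO (0 called), 44 genes passed with no filter, 14 in DESeq2 with the block, 1 with an effective length offset, 176 with replicates 2 and 3 only (1 of the 10 genes, Slc7a11), and 0 to 15 with 1 library left out. For KO DHT over KO DMSO (0) the counts were 8, 1, 5 with the 2 groups only, 2 with replicates 2 and 3, and 0 to 1. For KO DHT+ENZ over KO DHT they were 1041 in DESeq2 with the block (1 of the 10 genes) and 215 without it, 270 with the length offset, 1155 with the 2 groups (2 of the 10), 0 with replicates 1 and 4, and 169 to 1480 with 1 library left out (0 to 1 of the 10). There, 1 of the 10 passed with no filter and with replicates 2 and 3. For KO DHT+ENZ over KO DMSO they were 819, 187, 288, 1917 (2 of the 10), 0, 278 with replicates 2 and 3, and 220 to 1247 (0 to 2 of the 10), with 1 of the 10 passing with no filter. The extremes came without WT DMSO replicate 1 (1480 and 1247), KO DHT+ENZ replicate 4 (169) and KO DMSO replicate 4 (220). Among 780 alternative values of the 30 called list results, 351 no longer passed and 1 reversed: Mafg in KO DHT+ENZ over KO DHT was -0.015 with the length offset (adjusted p = 0.979, edgeR). The cause was not tested for any of these. Depth limits Osgin1 most.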
